A study of Mus musculus with 6 samples.

Results

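Lypd6, Lypd6b, Lypd1, Lynx1, Ly6h and Ly6e are 6 genes of the Ly6 family, small surface proteins often called prototoxins because their loop fold is that of snake venom neurotoxins. They were followed in 6 libraries made from thalamus, taken from adult mice of the line Cbln1-EGFP-Rpl10a-NIDA030 that had received no treatment, and all 6 were found by symbol among the 32531 genes counted. The group was chosen by the measured IP/Input increases of Lypd6 and Lypd6b, which were among the largest in this same comparison, and the other 4 were taken as relatives. The values of IP against Input are therefore a description of these genes and carry no p-value.

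In the line, ribosomes carrying green fluorescent protein on the protein Rpl10a are pulled down from homogenised tissue with antibodies, a method called translating ribosome affinity purification (TRAP). The 3 immunopurified (IP) libraries hold the recovered RNA, and the 3 Input libraries bear the labels' name for the unselected material, although both kinds are labelled as RNA bound to ribosomes. Every mouse carried the transgene and none was treated, so there was no group without the tag. The line is named for Cbln1; the labels say neither which regulatory sequence drives the tag nor how many animals stand behind a replicate. The deposited names point to the parafascicular nucleus, while the labels name only the thalamus.

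Ly6 proteins of this group are held on the outer membrane by a lipid (GPI) anchor. Several of them sit beside nicotinic acetylcholine receptors, the cation channels opened by acetylcholine, and change how those receptors open, desensitise or reach the surface. Lynx1 is known as a brake on nicotinic signalling and adult plasticity. Lypd6 is also known outside the cholinergic field, as a partner of the Wnt co-receptor Lrp6.

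The libraries held 23929070 to 57385828 assigned counts. Cbln1 had 1429 ± 67.8 CPM (assigned counts scaled to a common library total, adjusted for composition by the trimmed mean of M-values, TMM) in IP and 79.8 ± 9.64 CPM in Input (mean ± SD over 3 libraries). Of 11 thalamic glutamatergic markers, 5 were called higher (Slc17a6 and Tcf7l2 among them), 3 lower (Ntng1, Rora and Zic1) and 3 not, with a median log2 fold change of 0.12. For comparison, 23.3% of all tested genes were called higher and 24.3% lower, with a median of -0.07. Markers of other cells were lower in IP: 10 of 10 astrocyte, 10 of 10 oligodendrocyte, 6 of 6 oligodendrocyte precursor, 8 of 10 microglial, 7 of 10 endothelial and 3 of 6 mural genes passed the test in that direction, and 1 mural gene, Pdgfrb, passed in the other but not with library totals or without Input replicate 3. Xist was at 0 counts in IP and Input replicate 3 and above 0 in the other 4 libraries. In bulk RNA, fewer cells of a type and less RNA per cell cannot be told apart.

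The mature part of each Ly6 protein is knitted by disulfide bonds between cysteines, and the cysteine codons near the end of that part are marked here. The stretches below run 5′ to 3′ from the first of the last 10 cysteine codons to the end of the final Cys-Asn codon pair, with cysteine codons in capitals. They are exonic coding sequence from GENCODE release M21 (mm10), 1 transcript a gene. Each is a small part of its gene's merged exons, 204 of 3729 bases in Lypd6 and 204 of 2604 bases in Lypd6b.
Lypd6: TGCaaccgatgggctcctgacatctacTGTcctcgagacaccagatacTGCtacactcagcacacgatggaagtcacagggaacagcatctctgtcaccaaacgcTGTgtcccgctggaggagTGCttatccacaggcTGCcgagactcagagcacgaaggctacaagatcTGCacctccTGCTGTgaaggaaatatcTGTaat
Lypd6b: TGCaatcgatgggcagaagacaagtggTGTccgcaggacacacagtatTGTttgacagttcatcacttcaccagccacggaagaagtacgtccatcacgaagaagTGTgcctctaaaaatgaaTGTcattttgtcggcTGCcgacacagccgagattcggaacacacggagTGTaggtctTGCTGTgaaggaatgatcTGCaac
Lynx1: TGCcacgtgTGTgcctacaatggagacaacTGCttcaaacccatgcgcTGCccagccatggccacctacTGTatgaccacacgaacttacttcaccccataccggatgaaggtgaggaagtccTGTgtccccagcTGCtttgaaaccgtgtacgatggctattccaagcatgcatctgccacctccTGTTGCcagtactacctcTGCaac
Lypd1: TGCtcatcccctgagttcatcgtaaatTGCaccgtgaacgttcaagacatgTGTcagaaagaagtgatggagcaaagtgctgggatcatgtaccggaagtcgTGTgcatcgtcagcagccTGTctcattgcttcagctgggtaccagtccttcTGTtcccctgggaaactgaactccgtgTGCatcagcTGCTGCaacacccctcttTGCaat

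The Lypd6 stretch lies in 3 exons at chr2:50173663-50190685 (plus strand), that of Lypd6b in 3 exons at chr2:49943584-49947455 (plus strand), that of Lynx1 in 2 exons at chr15:74751306-74751630 (minus strand) and that of Lypd1 in 2 exons at chr1:125873441-125910472 (minus strand). In all 6 genes the stretch closes with a pair of adjacent cysteine codons, 4 other codons, and Cys-Asn. Lypd6 and Lypd6b matched at 129 of 212 aligned columns (60.8%) of these stretches, the highest of the 15 pairs, and the other pairs lay between 45.8% (Ly6h and Ly6e) and 53.6% (Lypd6 and Lynx1). Up to the final Cys-Asn pair, Lypd6 and Lypd1 hold 13 cysteine codons, Lypd6b 15 and Lynx1 10. The stretches therefore need not start at matching positions, and the identities describe the stretches only. The longest run of bases that any annotated Lypd6 transcript shared with a Lypd6b transcript, on the same strand, was 13 bases, tgctgtgaaggaa, from that closing pair of cysteine codons onward. Of the 6 pairs among these genes that were compared in this way, none shared more than 15 bases.

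Lypd6 was the most enriched of the 6. Its transcripts made up 703, 622 and 649 CPM in IP replicates 1 to 3 and 49.6, 57.9 and 50.6 CPM in Input replicates 1 to 3. Every IP library lay far above every Input library, and neither group was widely spread. The means were 658 ± 40.9 CPM in IP and 52.7 ± 4.52 in Input (SD over 3 libraries), a 12.5-fold difference (log2 fold change 3.64, SE 0.10). Within replicate numbers, which are also sequencing lanes 1, 5 and 6, the log2 ratio was 3.83, 3.43 and 3.68. Of 5871 called genes averaging 5 CPM or more, 4 had a larger log2 fold change.

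Lypd6b, a close relative of Lypd6 that is known to alter currents of nicotinic receptors, followed it at 245, 386 and 294 CPM in IP and 24.4, 26.4 and 30.5 CPM in Input. Its IP libraries were again all above Input, but they scattered more, with replicate 2 the highest for Lypd6b and the lowest for Lypd6. The means were 308 ± 71.3 CPM in IP and 27.1 ± 3.12 CPM in Input, an 11.4-fold difference (log2 fold change 3.51, SE 0.18). The log2 ratios within replicate numbers were 3.33, 3.87 and 3.27. Among the same 5871 genes, 7 had a larger log2 fold change.

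The remaining 4 genes differed less. Lynx1 was at 1193, 1356 and 1351 CPM in IP and 670, 647 and 664 CPM in Input. The 2 groups were apart and each was tight, at 1300.0 ± 93.0 and 660.3 ± 11.5 CPM (1.97-fold, log2 fold change 0.98, SE 0.07). Ly6e, best known from immune cells and from restriction of virus entry, was at 176, 137 and 107 CPM in IP and 85.8, 75.2 and 74.6 CPM in Input. Its IP libraries spread most for their size, with replicate 1 highest in both groups. The means were 140.3 ± 34.7 and 78.5 ± 6.30 CPM (1.79-fold, log2 fold change 0.84, SE 0.16).

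Ly6h, which is known to limit how much nicotinic receptor reaches the neuronal surface, was scarce. It was at 11.9, 12.01 and 10.1 CPM in IP and 7.87, 7.49 and 7.44 CPM in Input, so the groups were apart by little (1.49-fold, log2 fold change 0.58, SE 0.19). Its counts were 201 to 593 a library. The fit no longer called Ly6h with the replicate number as a block, with upper-quartile or library-total scaling, or without any 1 Input library.

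Lypd1, also called Lynx2 and known from studies of anxiety-related behaviour, went the opposite way. It was at 5.42, 6.78 and 7.51 CPM in IP and 22.0, 21.6 and 20.4 CPM in Input, with every IP library below every Input library (3.25-fold lower, log2 fold change -1.70, SE 0.18). Its log2 ratios within replicate numbers were -2.02, -1.67 and -1.44. Markers of several cell types moved in the same direction. All 10 astrocyte, 10 oligodendrocyte and 6 oligodendrocyte precursor markers were called lower, as were 8 of 10 microglial markers. So were 5 of 9 tested GABAergic and 5 of 7 habenula markers. None of these markers was called higher, against 23.3% of all genes called higher and 24.3% lower. Some scarce markers passed the filter through their Input counts. Without IP replicate 3 the counts lower were 8 GABAergic and 3 habenula markers. The habenula count was 3 without Input replicate 2 and 2 without Input replicate 3. Summed levels were 115 to 126 CPM in IP and 558 to 800 CPM in Input for the GABAergic list, and 148 to 218 CPM and 155 to 273 CPM for the habenula list. No marker of either list was at 0 in all IP libraries. The part of any of these cell types in the Lypd1 values was not tested.

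In the fit over 16898 genes, 5 of the 6 were called higher in IP and 1 lower, while 23.3% of all genes were called higher, 24.3% lower and 47.5% in either direction. For the same 5 genes all IP libraries lay above all Input libraries, as they did for 27.9% of genes, and for Lypd1 all lay below, as for 33.7%. Since the comparison itself led to these genes, nothing is read from the counts. Of all calls, 48.9% were higher with TMM; the share was 36.7% with upper-quartile scaling, 31.9% with library totals and 43.1% with DESeq2. The median log2 fold change of all genes was -0.07 in the main fit, -0.25 with upper-quartile scaling, -0.31 with library totals, -0.35 with no filter and -0.41 with DESeq2. The 6 genes kept their directions under each of these settings.

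**Figure D1:**
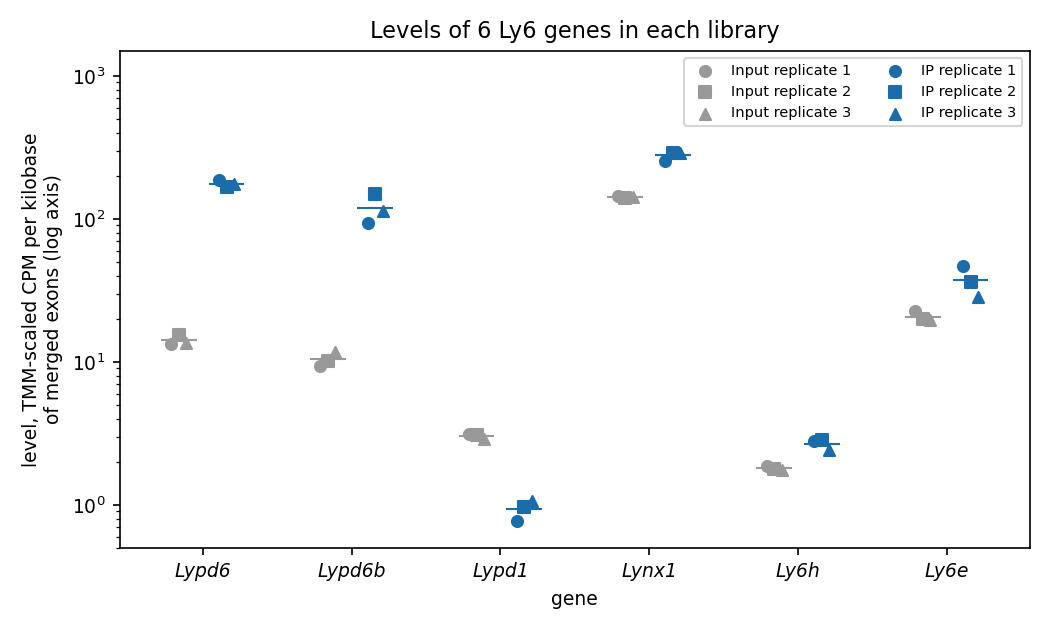
Level per kilobase of merged exons (TMM-scaled CPM per kilobase, log axis) of each gene in the 3 Input (grey) and 3 IP (blue) libraries; the symbol shape is the replicate number and the line is the group mean. Lypd6 goes from a mean of 14.1 to 176 and Lypd6b from 10.4 to 118, while Lypd1 goes from 3.03 to 0.933.

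Levels of different genes were compared per kilobase of merged exons. In Input the order was Lynx1 (142 ± 2.47 CPM per kilobase), Ly6e (20.8 ± 1.66), Lypd6 (14.1 ± 1.21), Lypd6b (10.4 ± 1.20), Lypd1 (3.03 ± 0.116) and Ly6h (1.80 ± 0.0558). In IP it was Lynx1 (279 ± 20.0), Lypd6 (176 ± 11.0), Lypd6b (118 ± 27.4), Ly6e (37.1 ± 9.16), Ly6h (2.68 ± 0.246) and Lypd1 (0.933 ± 0.150), all mean ± SD over 3 libraries. The libraries of neighbouring genes in these orders did not overlap. The ratio of Lypd6 to Lypd6b was 1.56 ± 0.437 in IP and 1.37 ± 0.191 in Input, above 1 in each library and as low as 1.13 in IP replicate 2. The order held when the longest transcript replaced the merged exons.

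The make-up of the group differed between IP and Input. Of the summed level per kilobase of the 6 genes, Lypd6 and Lypd6b together made up 48.02, 48.8 and 47.2% in IP and 11.7, 13.5 and 13.2% in Input. Within a library the 2 genes thus gave a share that hardly differed between replicates, although the balance between them did. Lynx1 made up 45.4 ± 2.10% in IP and 73.9 ± 0.415% in Input, and Ly6e 6.06 ± 1.68% and 10.8 ± 0.762%. In Input the level per kilobase of Lypd6 was 0.0999 ± 0.0104 times that of Lynx1, and in IP it was 0.637 ± 0.0874 times.

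**Figure D2:**
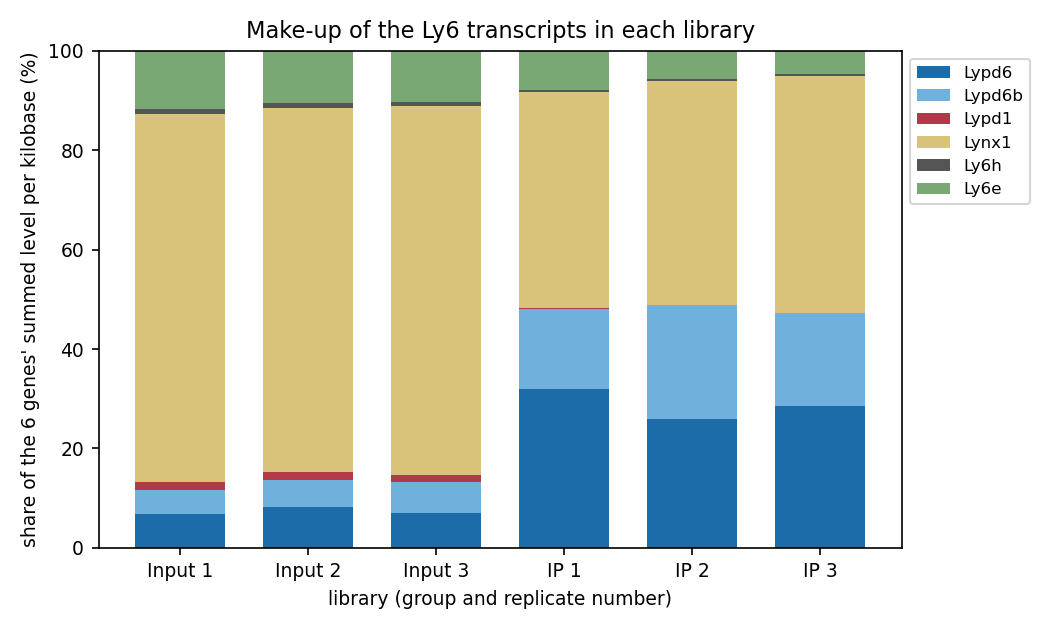
Share of each gene (%) in the summed level per kilobase of the 6 genes, 1 bar for each library. Lypd6 and Lypd6b together fill 47.2 to 48.8% of the IP bars and 11.7 to 13.5% of the Input bars, and the Lynx1 band is the broadest in Input.

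Genes used across neurons give a scale for these differences. Of 15 pan-neuronal genes 13 rose, 1 fell and 1 was not called (23.3% of all genes were called higher and 24.3% lower), with a median log2 fold change of 0.85 against -0.07 for all genes. The stathmin gene Stmn3 had the largest increase (log2 fold change 1.36, SE 0.09, edgeR's adjusted p = 5.48e-06), next to the ubiquitin hydrolase gene Uchl1 (1.28, SE 0.13), while the dendritic microtubule gene Map2 fell (-1.09, SE 0.09). Of these 15 genes, 6 had a log2 fold change larger than that of Lynx1, 8 larger than that of Ly6e, 11 larger than that of Ly6h and 0 larger than that of Lypd6 or Lypd6b. Lynx1, Ly6e and Ly6h thus lay inside the range of the pan-neuronal genes, and Lypd6, Lypd6b and Lypd1 outside it.

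The genomic places of the genes differ. In mm10, Lypd6b (chr2:49787688-49948849) and Lypd6 (chr2:50066429-50193569) follow each other on the plus strand of chromosome 2, their starts 279 kilobases apart. Kif5c, a kinesin motor gene before Lypd6b, was not called (750 CPM in IP, 827 in Input, adjusted p = 0.184), nor was Mmadhc, a vitamin B12 metabolism gene after Lypd6 (56.7 and 55.9 CPM, adjusted p = 0.935). Farther out, Epc2 rose (0.46 on the log2 scale, SE 0.09, adjusted p = 0.00330). Mbd5, which lies beyond Epc2, also rose (0.42, SE 0.09, adjusted p = 0.00477).

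**Figure D3:**
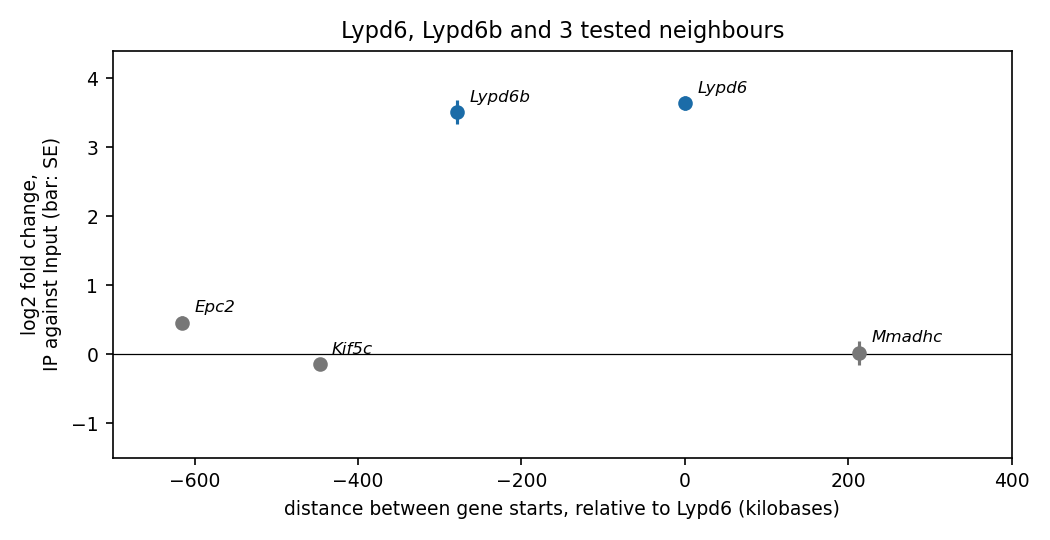
Log2 fold change of IP against Input (points, bar: SE) for Lypd6, Lypd6b and 3 of the tested protein-coding neighbours, by distance between gene starts in kilobases. The 2 Lypd6 genes lie at 3.64 and 3.51, and the other 3 lie between -0.14 and 0.46.

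Lynx1 (chr15:74747852-74753046), Ly6e (chr15:74955051-74959905) and Ly6h (chr15:75551268-75567255) lie in the Ly6 cluster of chromosome 15. Beside Ly6e, the cluster's Ly6a and Ly6c1 fell (adjusted p = 0.0115 and 0.0417). Both passed the filter through their Input counts, so nothing is read from their falls. Ly6i, Ly6d, Slurp1 and Lypd2 had at most 5 counts in any library. Near Ly6h, Top1mt rose (0.56, SE 0.18, adjusted p = 0.0282) and Zfp41 was not called (-0.48, SE 0.37). Lypd1 (chr1:125867622-125913101, minus strand) shares 1202 exonic bases, 17.1% of its merged exons, with Gpr39 on the opposite strand. Gpr39 had 0 counts in 5 libraries and 1 in Input replicate 1. The strand setting of the counting was not given, and whether reads in the shared bases were set aside as ambiguous could not be seen in the files. Of the tested neighbours of Lypd1, Nckap5 fell (-1.25, SE 0.25, adjusted p = 0.00292) and Tmem163 rose (1.33, SE 0.12, adjusted p = 3.49e-05), while Mgat5, Actr3 and Slc35f5 were not called. No other exon of an annotated gene overlapped the exons of the 6 genes.

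Of the 6 genes, Lypd6 and Lypd1 had entries in the RefSeq promoter table (build GRCm38.p6). The 250 bases before the Lypd6 start, chr2:50066179-50066428 on the plus strand, are printed 5′ to 3′ with CCAAT or its reverse complement in capitals, since Lypd6 had the largest difference.
Lypd6 upstream: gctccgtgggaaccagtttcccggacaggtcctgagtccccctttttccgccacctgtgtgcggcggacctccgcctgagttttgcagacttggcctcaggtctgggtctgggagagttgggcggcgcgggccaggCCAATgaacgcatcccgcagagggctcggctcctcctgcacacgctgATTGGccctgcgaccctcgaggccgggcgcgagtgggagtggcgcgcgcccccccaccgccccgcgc

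This window was rich in G and C (70.4%, median of 32851 promoters 52.4%) and held 24 CpG pairs (median 6). On both strands it held CCAAT 2 times (present in 33.8% of promoters) and GGGCGG, the GC box, 2 times (in 32.7%). It held no CTTTGA, the TCF/LEF core through which Wnt signals act (in 13.8%), CACGTG (6.02%), TATAA (22.8%) or TGACG (17.8%). Overlapping matches were counted at each position, and these letters describe the window only.

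Other Ly6/uPAR genes were mostly silent. Of 35 listed, 30 were in the files, 20 had a count in some library and 6 passed the filter on low counts, while none of the 24 untested ones exceeded 29 counts in a library. Of the 6 tested, 2 were called higher (Cd59a and Cd59b) and 4 lower, against 23.3% and 24.3% of all genes. The 4 lower genes, Ly6a, Ly6c1, Ly6g6d and Ly6g6f, passed the filter through their Input counts, so nothing is read from this count.

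Cd59a, which encodes an inhibitor of the complement pore on cell surfaces, rose by an amount close to the difference of Lypd6b. It was at 271, 234 and 232 CPM in IP and 26.6, 25.7 and 25.6 CPM in Input, with no overlap. The log2 fold change was 3.24 (SE 0.10, adjusted p = 1.87e-07). Its paralog Cd59b rose from 2.36 to 8.45 CPM (1.85, SE 0.32, adjusted p = 0.00150). Cd59a and Cd59b transcripts share a run of up to 104 bases, so reads may be split between them or set aside. Per kilobase, Lypd6 was 1.30 ± 0.0504 times Cd59a in IP and 0.986 ± 0.0970 times in Input.

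Ly6a and Ly6c1, known from blood vessels and blood cells, fell. Ly6a had 0, 8 and 8 counts in IP and 37, 181 and 78 in Input (log2 fold change -4.14, SE 1.08). Ly6c1 had 12, 0 and 0 counts in IP and 20, 91 and 64 in Input (-3.89, SE 1.37), and lost its call without IP replicate 2 or 3 or any 1 Input library (adjusted p between 0.0508 and 0.138). Ly6a lost its call without Input replicate 2 (adjusted p = 0.0800), and the 2 share runs of up to 118 bases. Ly6g6f and Ly6g6d had 0 counts in all IP libraries and were at least 43.1-fold and 31.8-fold lower there (floor of 3 counts over the group). Without Input replicate 2, the list had 2 genes lower in place of 4.

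Of 10 endothelial markers 7 were called lower and 3 were not called, against 24.3% of all genes called lower. Their summed level was 0.763 to 2.52 CPM in IP and 13.6 to 16.7 CPM in Input. Cldn5 and Cdh5 were at 0 counts in all IP libraries, while other markers of the list had counts there. All 7 called markers, Ly6a and Ly6c1 passed the filter through their Input counts. Nothing is read from their falls or from the count of 7. Microglial markers summed to 10.5 to 11.4 CPM in IP and 54.1 to 64.7 CPM in Input. Ly6e was higher in IP than in Input in the same libraries, and the part of these cells in its values was not tested.

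Nicotinic receptor subunits, the known targets of several prototoxins, did not move as one. Of 10 tested subunits of 16 listed, 1 rose, 4 fell and 5 were not called (median -1.44, against -0.07 for all genes, of which 23.3% were called higher and 24.3% lower). Chrnb2, the beta subunit of the common brain receptor, rose from 52.4 to 111 CPM (log2 fold change 1.08, SE 0.11, adjusted p = 7.5e-05), while its usual partner Chrna4 was at 137 CPM in IP and 132 CPM in Input (0.05, SE 0.11, adjusted p = 0.741). The habenula-rich subunits Chrnb3 (-3.68, SE 0.34), Chrna3 (-2.78, SE 0.41) and Chrnb4 (-2.03, SE 0.27) fell, as did Chrna5 (-3.54, SE 1.20), whose call was lost with the replicate block (adjusted p = 0.0970) and without IP replicate 2 or any 1 Input library. Chrna5 had 0, 2 and 5 counts in IP and 24, 13 and 39 in Input. It passed the filter through its Input counts, so nothing is read from its fall. The subunit Chrna7 was at 3.18 and 3.51 CPM (-0.14, SE 0.36) and Chrna6 at 4.70 and 4.77 CPM (-0.02, SE 0.31). The muscle-type subunits Chrna1 (-2.18, SE 0.81, adjusted p = 0.0504) and Chrnb1 (-0.85, SE 0.73) were scarce. Chrna1 was called lower with upper-quartile scaling, library totals or DESeq2 and without IP replicate 1 (adjusted p between 0.00966 and 0.0384). It too passed the filter through its Input counts, so nothing is read from these calls.

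Set against the receptor, Lypd6 stood in other proportions in IP than in Input. Per kilobase, Lypd6 was 6.53 ± 0.642 times Chrna4 in IP and 0.538 ± 0.0629 times in Input, and 13.6 ± 2.48 times Chrnb2 in IP and 2.27 ± 0.357 times in Input. No library of one group overlapped the other in these ratios. They follow from the Lypd6 values that led to the choice of the gene and carry no test.

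**Figure D4:**
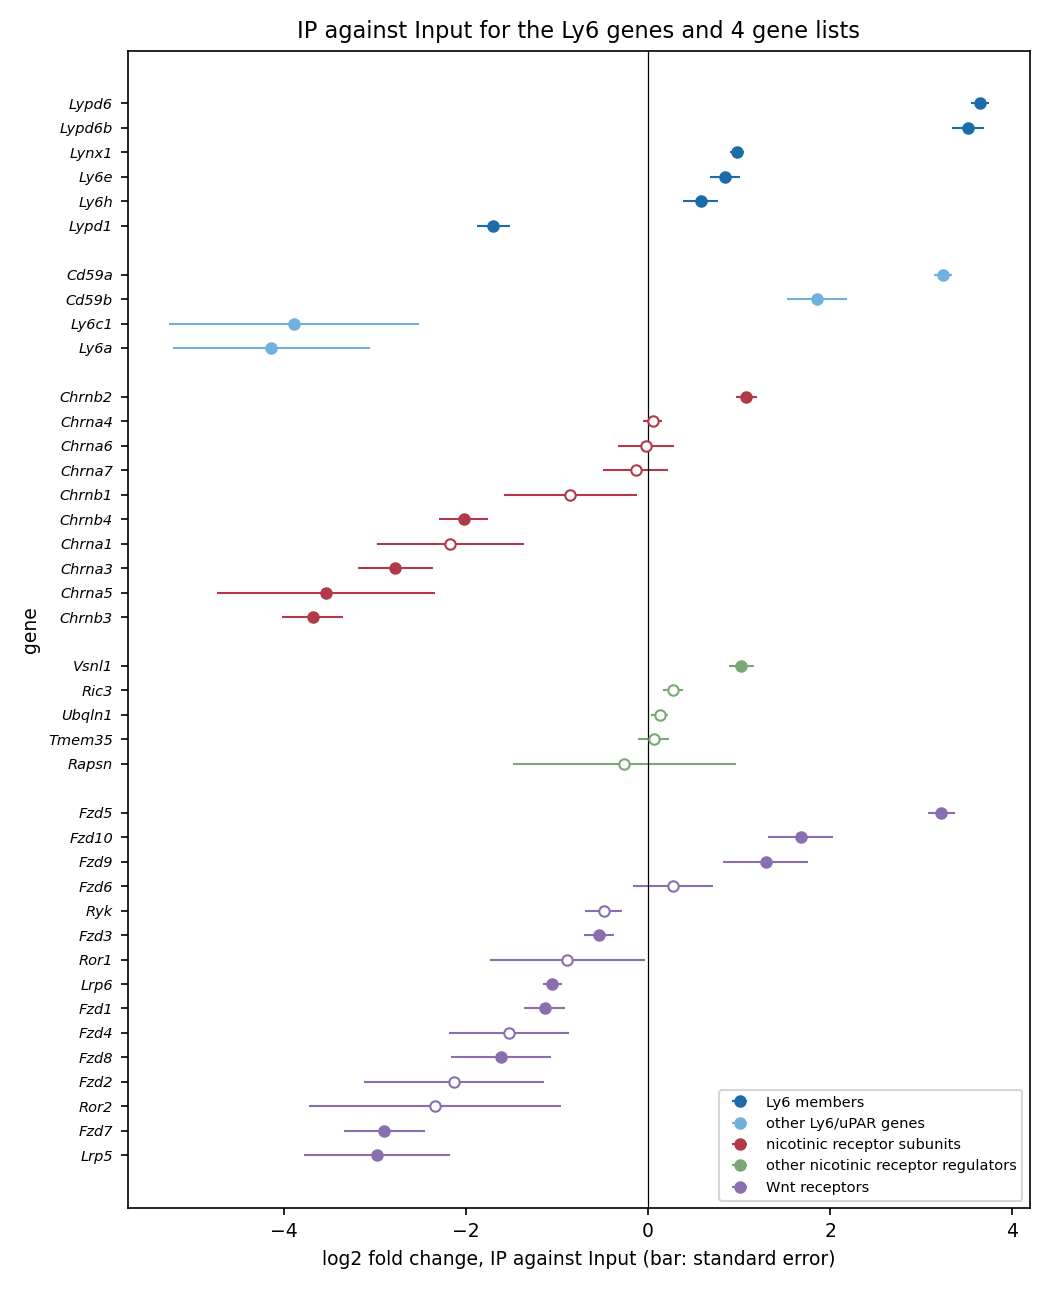
Log2 fold change of IP against Input with its standard error for the 6 Ly6 genes and for the tested genes of 4 lists, without the 2 genes at 0 in IP. Filled points outside the Ly6 genes passed the test and open ones did not; Cd59a (3.24) and Fzd5 (3.22) lie nearest to Lypd6 and Lypd6b.

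Among other regulators of nicotinic receptors, 1 rose. Of 5 tested, only Vsnl1, a calcium sensor that raises surface levels of the receptor, passed the test (1782 CPM in Input, 3619 in IP; 1.02 on the log2 scale, SE 0.14, adjusted p = 3.42e-04). The assembly chaperones Ric3 (0.28, SE 0.11, adjusted p = 0.0620) and Tmem35 (0.06, SE 0.17) did not, nor did Ubqln1 (0.13, SE 0.09) or Rapsn (-0.26, SE 1.23), a scaffold of the muscle receptor. Ric3 was called without IP replicate 1 or 2 and with no filter. Rapsn had 57, 3 and 1 counts in IP replicates 1 to 3 and was called lower without IP replicate 1. In that fit Rapsn passed the filter through its Input counts, so nothing is read from the call. The list's median was 0.13, and 1 of 5 (20.0%) is near the 23.3% of all genes called higher.

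Wnt receptors were listed because the Lypd6 protein binds Lrp6. Of 15 tested, 3 rose and 6 fell (20.0% and 40.0%, median -1.05), against 23.3%, 24.3% and -0.07 for all genes, so the share that rose is near that of all genes. Fzd5 rose from 18.0 to 169 CPM (log2 fold change 3.22, SE 0.15), and Lrp6 itself fell from 65.1 to 31.4 CPM (-1.05, SE 0.11, adjusted p = 6.6e-05). Lrp5 fell (-2.98, SE 0.80) but passed the filter through its Input counts and lost its call without Input replicate 1 or 2. Without Input replicate 1 the list had 3 genes lower in place of 6.

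The enzyme that adds the GPI anchor showed 1 call among 5 tested subunits (20.0%), near the 23.3% of all genes called higher. Pigt rose (log2 fold change 0.62, SE 0.13; adjusted p = 0.00414), while the other 4 lay between -0.08 and 0.64. With library totals Pigt was no longer called (adjusted p = 0.0597), and without IP replicate 1 or IP replicate 3 the count of subunits called higher was 2 or 3.

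Likeness to other genes was measured as the root mean square difference over the 6 libraries between log2 CPM profiles, each centred on its own Input mean, among 10787 other tested genes averaging 5 CPM or more. Lypd6 was nearest to Gm2694 (0.13), a long non-coding RNA gene that spans Cbln1 on the opposite strand. The strand setting was not given, so reads in any exons that Gm2694 and Cbln1 share may be miscounted or set aside. How much of their exons overlap was not measured. Next came Cbln4 (0.18), Ctxn3 (0.21), 1700011I03Rik (0.24) and Wnt4 (0.25). Lypd6b came 6th (0.29). The genes nearest to Lypd6b were 1700011I03Rik (0.16), Bace2 (0.18), Kcng2 (0.22), Wnt4 (0.23) and Grp (0.25). Wnt4, which encodes a Wnt ligand and is near both, was at 173 ± 12.9 CPM in IP and 17.2 ± 1.86 CPM in Input. Genes with an equally large difference between the groups are near by construction, so this is a description of rank and size.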

How the data were processed

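RNA-seq read counts per gene from 3 IP and 3 Input libraries were used. The submitters' processing notes name STAR 2.0.0e, HTSeq and the build mm10, and the authors deposited raw counts per gene symbol. For the annotation, the strand setting and the HTSeq version: not given in the sources used here. Lines tied to no gene (5 closing lines and "unknown") were left out. Multiply aligned reads made up 43.2 to 49.7% of the total of each IP file and 32.7 to 34.0% of each Input file. Reads outside features made up 8.44 to 9.39% in IP and 14.8 to 15.9% in Input, and ambiguous reads 1.32 to 1.58% and 5.47 to 6.60%. The ribosomal RNA precursor gene held 9.38 to 14.5% of assigned counts in IP and 5.21 to 5.40% in Input. These shares did not overlap between the groups, and their part in the fold changes was not tested. Groups and replicate numbers came from the titles. No label says that replicates are separate animals, so the p-values cover only the spread among these libraries, which may be partly technical. Xist was at 0 in both replicate 3 libraries and above 0 in the others, a difference between replicates whose source was not tested. Replicates differed by more than sampling noise (chi-square per degree of freedom 11.8 to 134).

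Genes passing filterByExpr (minimum count 10; 16898 of 32531) entered the main test, made with edgeR 4.0.16 under R 4.3.3 (TMM, robust quasi-likelihood F-test, Benjamini-Hochberg over all tested genes, threshold 0.05). Standard errors were derived from the F statistic. The script was tested on simulated data. Alternatives were upper-quartile and library-total scaling, DESeq2 1.42.0, no filter, a minimum count of 50, the replicate number as a block and each library left out. Lengths, positions and coding sequences came from GENCODE M21, promoters from RefSeq. The genes, lists and tests were chosen with earlier results of these data known. Genes were named from the 6 genes, the tested members of the other Ly6, nicotinic and regulator lists, the 2 most changed called members and the most significant opposite one of further lists, the 3 nearest protein-coding genes on each side and the 5 most alike profiles; marker genes outside this rule (Slc17a6, Tcf7l2, Ntng1, Rora, Zic1, Pdgfrb, Cldn5, Cdh5, Xist) were named after their values were seen. A tested neighbour of Lypd6 is not reported here.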

Additional observations from a re-analysis of the deposited data

How the results depend on the processing

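The 6 Ly6 genes kept their direction under all 12 alternatives. Log2 fold changes ranged from 3.40 to 3.72 for Lypd6, 3.28 to 3.66 for Lypd6b, 0.74 to 1.05 for Lynx1, 0.59 to 1.01 for Ly6e, 0.34 to 0.67 for Ly6h and -1.93 to -1.57 for Lypd1. Library totals moved Lypd6 to 3.40, Lynx1 to 0.74 and Ly6h to 0.34, called 2458 genes higher in place of 3930, and called 0 GPI subunits higher; upper-quartile scaling moved Lynx1 to 0.80 and Ly6h to 0.40. At a minimum count of 50, 1 other Ly6 gene was lower, as fewer were tested, and without a filter 2 nicotinic regulators were higher. Leaving out 1 library gave 2 to 4 other Ly6 genes lower, 1 to 2 nicotinic regulators higher and 0 to 1 lower, 3 to 7 Wnt receptors lower and 1 to 3 GPI subunits higher; the cause was not tested. With the replicate block, Lypd6 was 3.64, Lypd6b 3.49 and Ly6h 0.57, 3793 genes were higher and 4038 lower, and calls of Ly6h and Chrna5 were lost. Same-numbered libraries share a lane, and both of replicate 3 lacked Xist counts, but the labels do not say that they share animals, and their deviations correlated at 0.05, 0.04 and 0.01. Ly6h (201 to 593 counts a library) and Lypd1 rest on the fewest counts of the 6 genes.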
